A study of Danio rerio with 12 samples.

Results

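The comparison described here is between 2 sets of libraries that carry the same replicate number in their titles. Set 2 holds the 4 libraries whose title ends in R2 and set 1 the 4 whose title ends in R1, 8 of the 12 libraries of the series, and each set has 1 library from each of 4 dose groups. Every library was made from poly-A RNA of a pool of 10 whole wild-type zebrafish larvae at 5 days post fertilization (dpf). The larvae had been kept from 2 to 5 dpf in water with bisphenol A (BPA), a plastic monomer that binds estrogen receptors weakly, at 0.1, 1 or 4 mg/L, or with the solvent alone. The solvent, 0.2% DMSO, was present in all 4 dose groups, the controls included. Set 3, the other 4 libraries, entered the fits to help estimate the spread. The labels do not say whether libraries with the same number share a clutch, a dish or a day of handling. A difference between sets is therefore a difference between pools that share a number. The p-values rest on the spread between libraries left after the terms of the fit, with 1 library per dose group in each set. They do not measure a spread between sets, and libraries of a set that share an origin would not be independent. The comparison was made over all 4 dose groups, with dose group as a term, and again for the 3 exposed pairs alone. The second form was asked for because the control of set 2 was already known from these data to behave unlike the exposed libraries of its set.

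Larvae at this age have just opened their mouths and are turning from yolk to food. The exocrine pancreas, whose acinar cells make digestive enzymes as inactive zymogens, and the absorptive cells of the gut are active by then. Secretory cells fold these and other exported proteins in the endoplasmic reticulum (ER), where chaperones such as BiP and Grp94 are raised when unfolded protein builds up (the unfolded protein response). In RNA from whole larvae, fewer cells of a type and less RNA per cell cannot be told apart.

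Libraries of set 2 held 29.17 to 34.22 M counts, those of set 1 29.34 to 33.75 M and those of set 3 21.95 to 29.75 M. Mitochondrial transcripts took 1.61% to 2.12% of the counts in set 2, 1.62% to 2.03% in set 1 and 1.82% to 2.26% in set 3. Scaling factors (TMM, which corrects for a few abundant genes taking up reads) were 0.94 to 1.08 in set 2 and 1.02 to 1.11 in set 1. No pair of libraries was alike within counting noise, with a chi-square per degree of freedom from 11.7 to 132. As a check of exposure, cyp19a1b, the estrogen-inducible aromatase of brain radial glia, had 0.243, 0.419, 2.92 and 25.5 CPM (counts scaled to library size) at 0, 0.1, 1 and 4 mg/L in set 2, against 0.204, 0.368, 2.18 and 14.6 CPM in set 1. It climbed with dose in both sets. Between the sets the log2 fold change of cyp19a1b over all dose groups was 0.57 ± 0.16 (SE), which did not pass (adjusted p = 0.1252, edgeR). In the pancreatic enzyme genes amy2a, cpa4 and ela2 control 1 was nearer the exposed libraries of set 2 and control 2 nearer those of set 1. Of 28 pancreatic genes control 2 was below control 1 for 23 and above it for 5. Control 1 had 4.72 CPM of CELA1 (ENSDARG00000043168), nearer the exposed libraries of set 1 (3.00 to 3.33) than those of set 2 (12.1 to 17.0). For prss59.2 control 2, at 2243 CPM, was above control 1, at 1843 CPM. The controls of mybpc2b and rab27a lay with the exposed libraries of their own set. Whether the 2 controls carry the right replicate number was not tested, the labels were taken as given, and every value of the control pair rests on them; the comparison of exposed pairs does not use it.

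Over all 4 dose groups, 21 of 22399 tested genes (0.0938%) differed between set 2 and set 1 at an adjusted p under 0.05 in edgeR's quasi-likelihood test, 13 higher (0.058%) and 8 lower (0.0357%) in set 2. Without adjustment, 3700 genes had p under 0.05. The lower genes were led by chaperones of the ER, and the higher ones held a heme synthesis enzyme, muscle genes and a linker histone. The median log2 fold change over all tested genes was 0.01. The number of genes called moved with single libraries: it was 637 without the control of set 2, 70 without the control of set 1, and 10 without the 1 mg/L library of set 3. It was 1 without the control of set 3 and 0 without the 0.1 or 4 mg/L library of set 2 or without the 0.1, 1 or 4 mg/L library of set 1, where 2212 to 3134 genes had an unadjusted p under 0.05.

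The 5 genes of ER folding called over all dose groups, hsp90b1, pdia4, hspa5, calr3b and hyou1, were lower in set 2. Each was below its set 1 partner at every dose, which the rule for named genes required. Grp94, encoded by hsp90b1, folds secreted and membrane proteins in the ER. In set 2 it had 65.4, 74.2, 89.7 and 105 CPM at 0, 0.1, 1 and 4 mg/L, against 98.2, 132, 154 and 246 CPM in set 1. Its level climbed with dose within each set, and at each dose the set 2 library lay below its set 1 partner, while the ranges of the sets overlapped across doses. The log2 fold change was -0.86 ± 0.10 (SE; adjusted p = 0.0224, edgeR). Protein disulfide isomerase pdia4, which forms disulfide bonds, had 22.6, 24.8, 30.4 and 36.3 CPM in set 2, against 33.7, 54.4, 53.5 and 81.2 CPM in set 1. Its fold change of -0.92 ± 0.10 on the log2 scale came with an adjusted p of 0.0224 in edgeR. BiP, encoded by hspa5, the chaperone that senses unfolded protein, had 70.22, 80.5, 91.2 and 110 CPM in set 2, against 102, 129, 137 and 220 CPM in set 1. The calreticulin calr3b fell by 0.93 and the nucleotide exchange factor hyou1, which works with BiP, fell by 0.75 on the log2 scale (edgeR adjusted p = 0.0258 and 0.028). Reads of calr3b may be shared with its near copy calr3a, since how such reads were counted is not given.

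**Figure D1:**
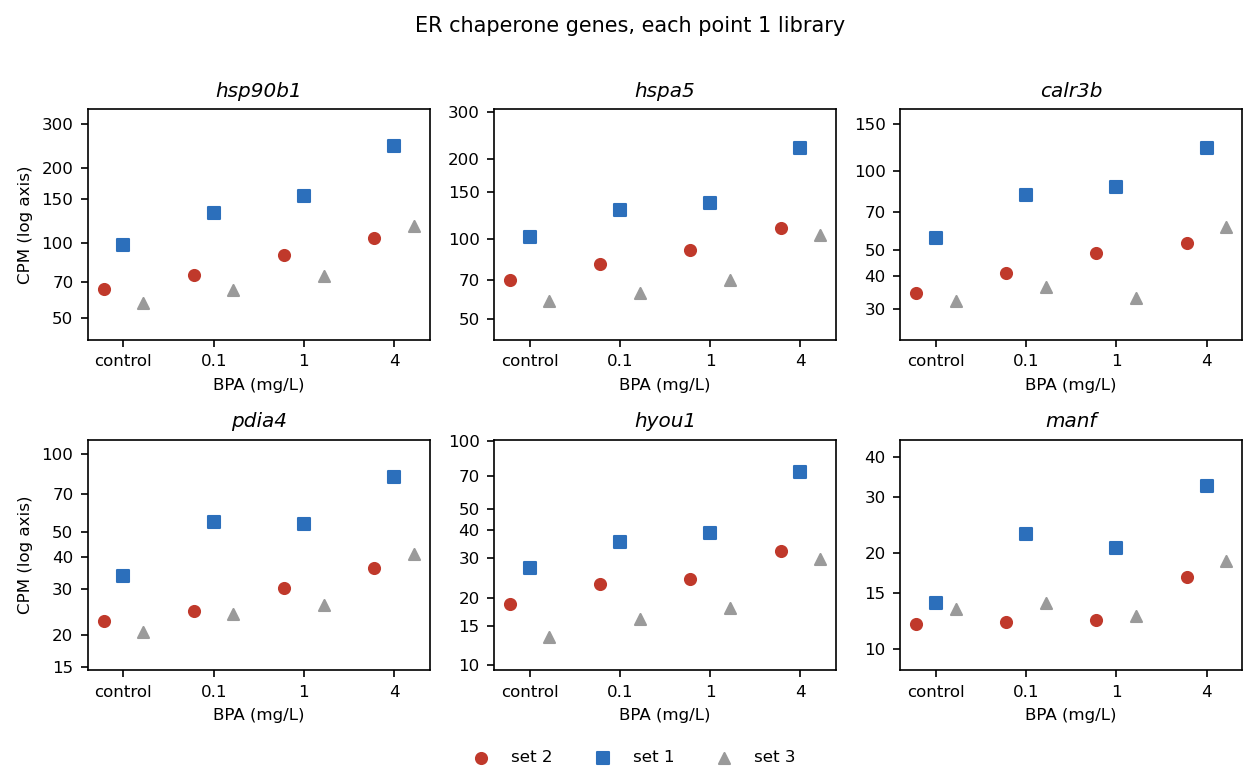
CPM (log axis) of 6 ER chaperone genes by BPA dose in mg/L, 1 point per library, for set 2 (red circles), set 1 (blue squares) and set 3 (grey triangles). At each dose the set 2 library lies below the set 1 library, by the widest margin for hsp90b1 at 4 mg/L (105 against 246 CPM), and set 3 lies close to set 2.

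These genes belong to a list of the unfolded protein response and ER folding, of which 56 of 58 named genes were tested. Over all dose groups 5 of the 56 were called, all lower, 50 lay below 0 and the median log2 fold change was -0.26. Of all 22399 tested genes, 0.0357% were called lower and 10847 lay below 0. For 30 of the 56 the set 2 library was the lower one in all 4 pairs, which held for 2712 of all 22399 tested genes. Among the exposed pairs alone 16 of the 56 were called lower, against 0.545% of all tested genes. Their log2 fold changes ran from -1.03 to -0.45, and the median over the 56 was -0.33. The 11 added were manf, a secreted protein that protects cells from ER stress, the co-chaperones dnajc3a, dnajc3b, dnajb11 and sdf2l1, the disulfide isomerases pdia6 and txndc5, the calreticulins calr and calr3a, creld2, and ssr4 of the translocon-associated complex. For manf the exposed libraries had 12.1, 12.3 and 16.8 CPM in set 2 at 0.1, 1 and 4 mg/L, against 23.0, 20.7 and 32.3 CPM in set 1, and the fold change was -0.88 ± 0.08 on the log2 scale (adjusted p = 0.0035, edgeR). The controls were nearer each other, with 12.0 CPM in set 2 and 14.0 CPM in set 1. Over the list, the median of set 2 minus set 1 was -0.16 in the control pair and -0.28, -0.28 and -0.41 in the pairs at 0.1, 1 and 4 mg/L. Of the 16 called among exposed pairs, 15 were also lower in control 2 than in control 1, and ssr4 alone was not (77.6 CPM in control 2 and 69.9 CPM in control 1). Over the whole list 33 of the 56 were lower in control 2 and 23 higher. Of all 22399 tested genes, 10681 were lower and 11711 higher in control 2. Averaged over doses, set 3 was nearer set 2 than set 1 for 40 of the 56 genes. Set 3 lay between the other sets for 15 genes, beyond set 2 for 31 and beyond set 1 for 10. The count of 5 over all dose groups became 17 without the control of set 2, 10 without the control of set 1, and 0 without the control of set 3, without the 0.1 or 4 mg/L library of set 2, or without the 0.1, 1 or 4 mg/L library of set 1. Without the control of set 2, 260 of 22586 tested genes were called lower, and without that of set 1, 35 of 22594. Among exposed pairs the 16 became 2, 3 and 9 without the set 1 library at 0.1, 1 and 4 mg/L, 10, 7 and 3 without the set 2 library at those doses, and 26 and 6 without the 0.1 and 1 mg/L libraries of set 3. Without the 0.1 mg/L library of set 3, 1036 of 22581 tested genes were called lower. In no fit did the sign of the list's median turn.

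Of the named genes that were higher over all dose groups, alas1 had the largest change. It encodes the first enzyme of heme synthesis in non-erythroid tissue, chiefly liver. In set 2 it had 151, 236, 329 and 289 CPM at 0, 0.1, 1 and 4 mg/L, against 103, 117, 171 and 132 CPM in set 1, a log2 fold change of 0.91 ± 0.11 (adjusted p = 0.0224, edgeR). Every exposed library of set 2 was above every library of set 1, and control 2 lay within the range of set 1. In set 3 the 4 libraries had 134, 154, 192 and 174 CPM, between the other sets at each dose. Fast muscle myosin binding protein mybpc2b had the smallest p of the 21 genes. Its 51.1, 54.6, 58.3 and 41.3 CPM in set 2 stood against 30.8, 34.8, 36.4 and 23.7 CPM in set 1, so the sets did not overlap (log2 fold change 0.72 ± 0.07, adjusted p = 0.0118, edgeR). All 4 pairs moved by a like amount, 0.73 in controls and 0.65, 0.68 and 0.80 in the exposed pairs. The sarcomere protein gene myoz3a (0.87), the linker histone h1fx (0.78), the Eps8 relative eps8l3a (0.68), cspp1b of centrosomes and cilia (0.67), the POU factor pou6f1 (0.62) and plac8.1 (0.57) completed the named higher genes, with edgeR adjusted p from 0.0382 to 0.0496. Outside the ER, nfil3-2, a repressor in the clock output pathway, fell by 0.70, rab27a of vesicle transport by 0.65 and the RNA-binding rbm4.2 by 0.52 on the log2 scale (edgeR adjusted p = 0.0494, 0.0382 and 0.0496). For rab27a the sets did not overlap, with 10.34, 11.6, 9.54 and 10.4 CPM in set 2 against 17.3, 16.3, 15.1 and 17.0 CPM in set 1. Of the 21 genes, 19 had a set 3 mean nearer to set 2 than to set 1, and for 12 it lay beyond set 2. For myoz3a, set 3 had 29.6, 39.6, 35.6 and 23.1 CPM, against 23.1, 27.1, 25.5 and 25.7 CPM in set 2 and 13.8, 16.1, 16.7 and 10.1 CPM in set 1. Of these calls, mybpc2b was lost without the 0.1 or 4 mg/L library of set 2 and without the 0.1, 1 or 4 mg/L library of set 1. Every other gene named here was lost without each of those and without the control of set 3, and some were lost more often.

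Among the exposed libraries alone, 305 of 22399 genes (1.36%) were called, 183 higher (0.817%) and 122 lower (0.545%) in set 2, by the same edgeR test with 3 libraries in each set. Without adjustment, 5128 genes had p under 0.05. Each of the 305 had the same sign in all 3 exposed pairs, which a test on those same pairs favours. The higher genes were led by digestive enzymes of the pancreas and held gut, liver and neurofilament genes. The lower ones held ER chaperones, proteasome subunits and the mucous cell genes muc5.2 and agr2. This count, too, followed single libraries: it was 22, 49 and 436 without the set 1 library at 0.1, 1 and 4 mg/L, 606, 66 and 24 without the set 2 library at those doses, and 2268, 102 and 670 without that of set 3. Without the control of set 1, 2 and 3 it was 304, 332 and 331. That it changed little follows from the fit and is no sign of stability. Each control had a term of its own there and could act only through the filter, the scaling and the shared estimate of spread. The tests over all dose groups and over exposed pairs share the 6 exposed libraries, so they are not independent of each other. The calls of amy2a, cpa4, CELA1 (ENSDARG00000043168), try, ela2, ctrl, ctrb1, c6ast3, pdia4 and manf held with each library left out in turn. Every other gene that the rule named for the exposed pairs lost its call without the 0.1 mg/L library of set 1 or, for slc5a1, without the 4 mg/L library of set 2.

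The exocrine pancreas list gave the most calls. Of 34 named genes 28 were tested, and 22 of them were called, all higher in the exposed libraries of set 2, against 0.817% of all tested genes called higher. The 22 changes ran from 1.76-fold to 4.51-fold, and the median over the 28 was 1.35 on the log2 scale. In 23 of the 28 genes all 3 exposed libraries of set 2 lay above all 3 of set 1, which held for 9.11% of all tested genes. Together the 28 genes took 1.13%, 1.07% and 1.23% of the counts at 0.1, 1 and 4 mg/L in set 2, against 0.503%, 0.462% and 0.491% in set 1. The exposed libraries of set 3 lay between, with 0.720%, 0.785% and 0.697%. None of the 28 was at 0 in any library. Without the set 1 library at 0.1 or 1 mg/L the 22 became 13 and 14, and without the 4 mg/L library of set 2 they became 14. With all 4 pairs, 0 of the 28 were called by edgeR or limma-voom and 6 by DESeq2. Of all 22399 tested genes DESeq2 called 366 higher and 221 lower. In edgeR 14 of the 28 were higher at an unadjusted p under 0.05. That held for 1909 of all 22399 tested genes. The median over the 28 was 0.84. Without the control of set 2, 20 were called over the remaining libraries, and without the control of set 1, 8. In those fits 637 of 22586 and 70 of 22594 tested genes were called in either direction.

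**Figure D2:**
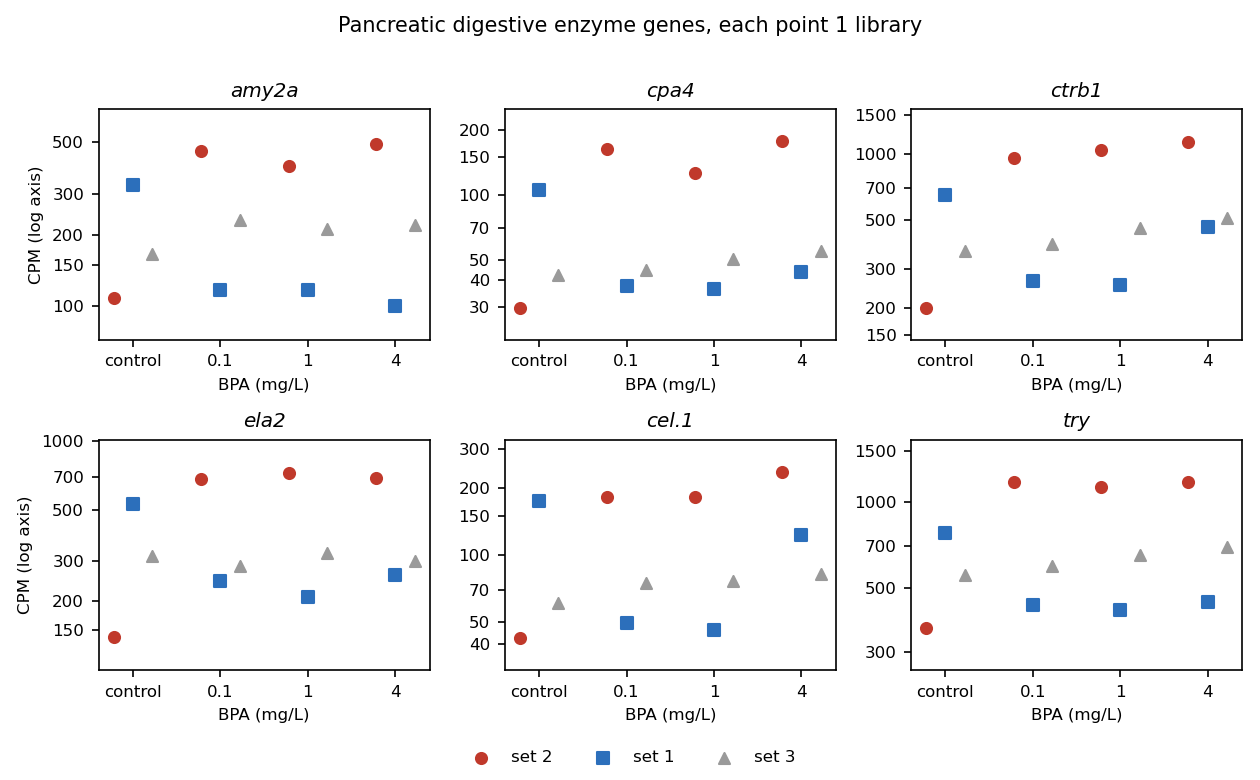
CPM (log axis) of 6 digestive enzyme genes of the pancreas by BPA dose in mg/L, 1 point per library, for set 2 (red circles), set 1 (blue squares) and set 3 (grey triangles). Exposed libraries of set 2 lie above those of set 1 in each panel, for amy2a at 394 to 494 against 100 to 116 CPM, and the controls lie the other way round (108 against 328 CPM).

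Pancreatic amylase, amy2a, which digests starch, had 457, 394 and 494 CPM in the exposed libraries of set 2 at 0.1, 1 and 4 mg/L, against 116, 116 and 100 CPM in those of set 1. That is 4.04-fold higher, or 2.01 ± 0.11 on the log2 scale (adjusted p = 0.000171, edgeR). The 6 libraries fell into 2 separate ranges by set, with no trend over dose in either, and the exposed libraries of set 3 lay between at 233, 212 and 223 CPM. Carboxypeptidase cpa4, which trims peptides from the C-terminal end, had 164, 127 and 179 CPM in set 2 against 37.7, 36.6 and 43.7 CPM in set 1 (1.99 ± 0.11 on the log2 scale, adjusted p = 0.000171, edgeR). For cpa4 set 3 was near set 1, at 44.5, 50.4 and 55.1 CPM. Trypsin, try, the protease that activates the other zymogens, had 1170.4, 1125 and 1177 CPM in set 2, against 437, 419 and 449 CPM in set 1. Elastase ela2 had 685, 725 and 688 CPM in set 2, against 244, 209 and 261 CPM in set 1. Within each set both genes kept to a narrow range across the 3 doses. For try the log2 fold change was 1.41 ± 0.09 and for ela2 1.55 ± 0.11 (edgeR adjusted p = 0.00025 and 0.000521).

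Chymotrypsinogen ctrb1 had 959, 1034 and 1132 CPM in set 2 at 0.1, 1 and 4 mg/L, against 265, 253 and 465 CPM in set 1. In set 1 the 4 mg/L library was the highest of the 3 exposed, and this recurred in the bile salt-activated lipase cel.1, with 183, 183 and 235 CPM in set 2 against 49.4, 46.2 and 123 CPM in set 1. The changes on the log2 scale were 1.71 ± 0.15 for ctrb1 and 1.56 ± 0.23 for cel.1 (edgeR adjusted p = 0.00206 and 0.0199). Other enzyme genes went with them: ctrl (1.65), cpa5 (1.71), cpa1 (1.29), cpb1 (1.32), ela3l (1.37), ela2l (1.23), prss59.1 (1.18), pla2g1b (1.37), the astacin-type proteases c6ast3 (1.65) and c6ast4 (1.41), cel.2 (1.49) and the zymogen granule protein sycn.2 (1.199), all log2 fold changes past the threshold. Of the 4 identifiers on the list that the files name CELA1, after an elastase, 3 were called as well, led by ENSDARG00000043168 with 12.1, 13.6 and 17.0 CPM in set 2 against 3.08, 3.00 and 3.33 CPM in set 1 (2.17 ± 0.13, adjusted p = 0.000171, edgeR). A further 2 identifiers of that name, not on the list, were also called, and one of them, ENSDARG00000017314, had 1298, 1316 and 1355 CPM in set 2 against 448, 400 and 572 CPM in set 1. Counts of these copies, and of the pairs prss59.1 and prss59.2, c6ast3 and c6ast4, and cel.1 and cel.2, are uncertain where reads could map to both members. The smallest change among the called genes was that of prss59.2, with 2881, 2021 and 2143 CPM in set 2 against 1686, 1423 and 980.01 CPM in set 1.

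Not every gene of the list was called. The transcription factor ptf1a, which specifies acinar cells and is also used in hindbrain and retina, had 0.928, 1.06 and 1.21 CPM in the exposed libraries of set 2, against 0.903, 1.36 and 1.26 CPM in set 1 (log2 fold change -0.14, adjusted p = 0.783, edgeR). At about 1 CPM its precision is low. The serine protease inhibitor gene spink4 had 19.8, 15.7 and 15.3 CPM in set 2 against 19.8, 15.2 and 12.4 CPM in set 1. The acinar disulfide isomerase pdia2 had 76.0, 82.0 and 95.5 CPM in set 2, against 33.0, 32.7 and 98.6 CPM in set 1. In pdia2 the 0.1 and 1 mg/L pairs were far apart and the 4 mg/L pair was not, and the test gave 0.80 on the log2 scale with an adjusted p of 0.101 (edgeR). The granule protein gene sycn.1 and another CELA1 identifier were not called either. The list of endocrine pancreas and pituitary, which holds hormone genes, granule proteins and processing enzymes, had 24 tested genes with a median of 0.38 among exposed pairs. Of these, 0 were called by edgeR or limma-voom. DESeq2 called 2 of them higher, and 586 of all 22399 tested genes. At an unadjusted p under 0.05 in edgeR, 9 of the 24 were higher. Of all 22399 tested genes, 2668 were higher at that threshold.

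Some genes of the gut and liver were called higher too. Among exposed pairs 0.817% of all 22399 tested genes were called higher, and 11242 lay above 0. Of 31 tested enterocyte genes 6 were called, all higher in the exposed libraries of set 2, with 30 above 0 and a median of 0.44 on the log2 scale. The sodium-glucose transporter slc5a1, which takes up sugar from the gut lumen, had 85.1, 127 and 63.2 CPM in set 2, against 25.2, 67.2 and 26.0 CPM in set 1 (1.29 ± 0.17 on the log2 scale, adjusted p = 0.0153, edgeR). Its 1 mg/L library was the highest of each set, and the 2 ranges met, with 63.2 CPM in set 2 at 4 mg/L against 67.2 CPM in set 1 at 1 mg/L. Lactase lct, the amino acid transporter slc6a19b, the brush border peptidase anpepa and the transcription factor CREB3L3 were also called, with log2 fold changes of 0.78 to 1.14. The brush border metalloprotease mep1b, outside the list, had 15.9, 15.3 and 9.56 CPM in set 2 against 2.37, 6.83 and 1.43 CPM in set 1 (2.12 ± 0.33, adjusted p = 0.0262, edgeR). Of 49 hepatocyte genes 5 were called, all higher, with 39 above 0, 10 below 0 and a median of 0.21: the vitamin D carrier gc, the hyaluronan-binding plasma proteins itih3a and itih3b, the fetuin fetub and the clotting factor f7. For gc the exposed libraries had 112, 126 and 109 CPM in set 2, against 57.0, 88.7 and 59.9 CPM in set 1 (0.78 ± 0.10 on the log2 scale, adjusted p = 0.0135, edgeR), and these exposed libraries did not overlap between the sets. Control 2 had 42.6 CPM of gc, below all of them. The hepatocyte list's median was -0.48 in the control pair and 0.33, 0.35 and 0.10 in the pairs at 0.1, 1 and 4 mg/L. The enterocyte count was 1 without the 0.1 or 1 mg/L library of set 1 or the 1 mg/L library of set 3, 3 without the 4 mg/L library of set 1, 2 and 0 without the 1 and 4 mg/L libraries of set 2, and 12 without the 0.1 mg/L library of set 3. The hepatocyte count was 0 without the 0.1 mg/L library of set 1 or the 4 mg/L library of set 2, 1 without the 1 mg/L library of either set, 3 without the 4 mg/L library of set 1, and 10 without the 0.1 mg/L library of set 3. The number over all tested genes rose in that last fit too, where 1232 of 22581 were called higher.

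Cytochrome P450 genes, which oxidize drugs, steroids and other small molecules, had 6 of 50 called among exposed pairs, all higher, with a median of 0.36. Of all tested genes 0.817% were called higher. The intestinal and hepatic cyp3a65 had 845, 863 and 649.7 CPM in set 2, against 287, 509 and 260 CPM in set 1 (1.21 ± 0.16 on the log2 scale, adjusted p = 0.0153, edgeR). Its controls differed the same way, with 433 CPM in control 2 and 324 CPM in control 1. The aryl hydrocarbon receptor target cyp1a had 25.8, 32.6 and 28.4 CPM in set 2, against 11.7, 19.8 and 15.4 CPM in set 1, and here the controls lay together at 13.04 CPM in control 2 and 13.1 CPM in control 1. Its log2 fold change was 0.90 ± 0.12 (adjusted p = 0.0171, edgeR). A few related genes were called too. Of the lipid genes, apoda.2 (an apolipoprotein D gene, 1.00), the fatty acid transporter cd36 (0.66) and agpat2 of triglyceride synthesis (0.65) were higher. So were abcb4, a phospholipid exporter of bile (0.75), the sulfotransferase sult1st3 (0.75), gamt of creatine synthesis (0.62) and star, which carries cholesterol into mitochondria for steroid synthesis (0.76). Lower were sult5a1 (-1.03), gstm.3 (-0.64) and the ER-resident peroxidase gpx7 (-1.05), phgdh of serine synthesis (-0.47) and hsd17b7 of cholesterol synthesis (-0.71), all log2 fold changes past the edgeR threshold. The P450 count was 0 without the 0.1 mg/L library of set 1 or the 4 mg/L library of set 2, 2 without the 1 mg/L library of set 1 or set 3, 3 without that of set 2, and 14 without the 0.1 mg/L library of set 3. In that last fit 1232 of 22581 tested genes were called higher.

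Of 54 tested neuronal genes 5 were called, all higher in the exposed libraries of set 2, against 0.817% of all tested genes called higher. The log2 fold change was above 0 for 53 of the 54, with a median of 0.52. In 18 of the 54 all exposed libraries of set 2 lay above all those of set 1, which held for 9.11% of all tested genes. Of the called genes 4 encode neurofilaments, the intermediate filaments of axons: nefla, neflb, nefma and nefmb. The fifth, mpz, encodes a protein of myelin. The light chain nefla had 7.42, 8.11 and 7.81 CPM in set 2 at 0.1, 1 and 4 mg/L, against 2.07, 2.64 and 3.28 CPM in set 1 (1.54 ± 0.22 on the log2 scale, adjusted p = 0.0191, edgeR). Its controls lay the other way, with 1.53 CPM in control 2 and 3.85 CPM in control 1. The list's median was -0.45 in the control pair and 0.55, 0.78 and 0.23 in the pairs at 0.1, 1 and 4 mg/L. The neuron count was 0 without the 0.1 or 1 mg/L library of set 1 or the 1 or 4 mg/L library of set 2, 10 without the 0.1 mg/L library of set 2, 19 without the 4 mg/L library of set 1, and 33, 1 and 10 without the 0.1, 1 and 4 mg/L libraries of set 3. Without the 0.1 mg/L library of set 2, 306 of 22610 tested genes were called higher, and without the 4 mg/L library of set 1, 320 of 22586. It was 1232 of 22581 and 369 of 22596 without the 0.1 and 4 mg/L libraries of set 3.

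In the main fit few genes of protein turnover and cell division were called, all of them lower. The proteasome, the complex that degrades ubiquitin-tagged proteins, had 4 of 43 tested subunit genes called among exposed pairs, all lower. Of all tested genes 0.545% were called lower. In 41 of the 43 genes all 3 exposed libraries of set 2 lay below all 3 of set 1, which held for 13.6% of all tested genes, and the median was -0.31. The core subunit psma5 had 103, 75.3 and 86.5 CPM in set 2, against 145, 119 and 135 CPM in set 1 (-0.60 ± 0.11 on the log2 scale, adjusted p = 0.0383, edgeR), and control 2 at 131 CPM was above control 1 at 116 CPM. In that psma5 differed from most of its list, since control 2 was below control 1 for 31 of the 43 genes and 29 were lower in set 2 in all 4 pairs. Of all 22399 tested genes, 10681 were lower in control 2 than in control 1 and 2712 were lower in set 2 in all 4 pairs. The lid subunit psmd8 fell by 0.45, the ubiquitin receptor psmd4a by 0.39 and the core subunit psma8 by 0.40 on the log2 scale. Of 75 genes of the cell cycle and replication, 74 had a negative log2 fold change among exposed pairs. For 58 all exposed libraries of set 2 lay below all those of set 1. The median over the 75 was -0.33. In the main fit rpa2, a subunit of the single-strand DNA binding protein, was the only call by edgeR (-0.51 ± 0.10, adjusted p = 0.0473). At an unadjusted p under 0.05 in edgeR, 38 proteasome and 47 cell cycle genes were lower among exposed pairs, against 2460 of all 22399 tested genes. With sets 1 and 2 only, edgeR called 23 proteasome and 22 cell cycle genes lower, against 987 of 22428 tested genes. The proteasome count was 0 without the 0.1 or 1 mg/L library of set 1 or the 1 or 4 mg/L library of set 2, 1 without the 4 mg/L library of set 1 or the 0.1 mg/L library of set 2, and 22, 2 and 8 without the 0.1, 1 and 4 mg/L libraries of set 3. Without the 0.1 and 4 mg/L libraries of set 3, 1036 of 22581 and 301 of 22596 tested genes were called lower. Since genes of 1 complex share their libraries, the number that did not overlap is not a count of independent events.

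On the list of epidermis and mucus cells, 3 of 36 genes were called lower in the exposed libraries of set 2 and 1 higher. Of all tested genes 0.545% were called lower and 0.817% higher. The list's median was 0.24 in the control pair and -0.11, -0.44 and -0.33 in the pairs at 0.1, 1 and 4 mg/L. Of the list's called genes, the following can be named. The lower ones were the mucin muc5.2 of mucous cells (-0.95), the disulfide isomerase agr2 needed for mucus production (-0.83) and icn of ionocytes and skin (-0.55), and the higher one was the keratin krt94 (0.57). The mucins muc5.1 (-0.36) and muc5.3 (0.50) were not called (edgeR adjusted p = 0.342 and 0.394). Further lower genes were not on this list and were named for their size or from other lists. The integrin subunit itgb4 anchors basal keratinocytes to the basement membrane. It had 132, 80.8 and 78.0 CPM in set 2 at 0.1, 1 and 4 mg/L, against 203, 160 and 172 CPM in set 1 (-0.90 ± 0.17 on the log2 scale, adjusted p = 0.0443, edgeR). The controls were close, with 158 CPM in control 2 and 174 CPM in control 1, and the libraries of set 3 had 78.0, 93.4, 99.6 and 115 CPM at 0, 0.1, 1 and 4 mg/L. The calpain gene capn12 (-0.97), COL28A1 (-0.93), the fin fold gene and1 of actinotrichia (-0.85), IKZF2 (-0.88), s100a10b (-0.57) and the galectin lgals1l1 (-1.38) were called lower as well. For lgals1l1 the 4 mg/L pair stood out, with 33.4 CPM in set 2 against 151 CPM in set 1. Without the 0.1 or 1 mg/L library of set 1, or the 1 or 4 mg/L library of set 2, the calls of itgb4, muc5.2, agr2, icn, capn12, COL28A1, and1, IKZF2, s100a10b and lgals1l1 were lost. All of these but agr2 were also lost without the 1 mg/L library of set 3, and itgb4, muc5.2 and COL28A1 without the 4 mg/L library of set 1.

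The transcripts of clock genes cycle over the day. Of 50 tested, 1 was called higher among exposed pairs, the clock output factor dbpb, and 1 lower, nfil3-2. Of all tested genes 0.817% were called higher and 0.545% lower. In 18 of the 50, all exposed libraries of set 2 lay above those of set 1, and in 8 all lay below. These held for 9.11% and 13.6% of all tested genes. Over all dose groups, 19 of the 50 were higher and 9 lower at an unadjusted p under 0.05 in edgeR. Among all 22399 tested genes, 1909 were higher and 1791 lower at that threshold. The PAR bZIP activator dbpb had 26.7, 19.7 and 16.9 CPM in set 2 against 11.2, 13.4 and 10.7 CPM in set 1 (0.84 ± 0.16 on the log2 scale, adjusted p = 0.0443, edgeR), and 23.7 CPM in control 2 and 14.6 CPM in control 1. Its repressor counterpart nfil3-2 had 8.53, 10.8 and 9.88 CPM in set 2 against 14.7, 16.0 and 13.6 CPM in set 1, with 8.71 and 17.5 CPM in the controls of set 2 and set 1. Both genes thus separated the sets in controls and exposed larvae alike. The nuclear receptor nr1d1, a target of the clock, had 80.8, 67.2, 51.8 and 59.6 CPM at 0, 0.1, 1 and 4 mg/L in set 2, against 38.3, 37.4, 47.5 and 38.8 CPM in set 1, which did not pass (adjusted p = 0.0891 over all dose groups, edgeR). It was chosen after its values were seen. The calls of dbpb and nfil3-2 were both lost without the 0.1 or 1 mg/L library of set 1, without the 1 or 4 mg/L library of set 2 and without the 1 mg/L library of set 3. That of dbpb was also lost without the 4 mg/L library of set 1, and that of nfil3-2 without the 0.1 mg/L library of set 2.

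**Figure D3:**
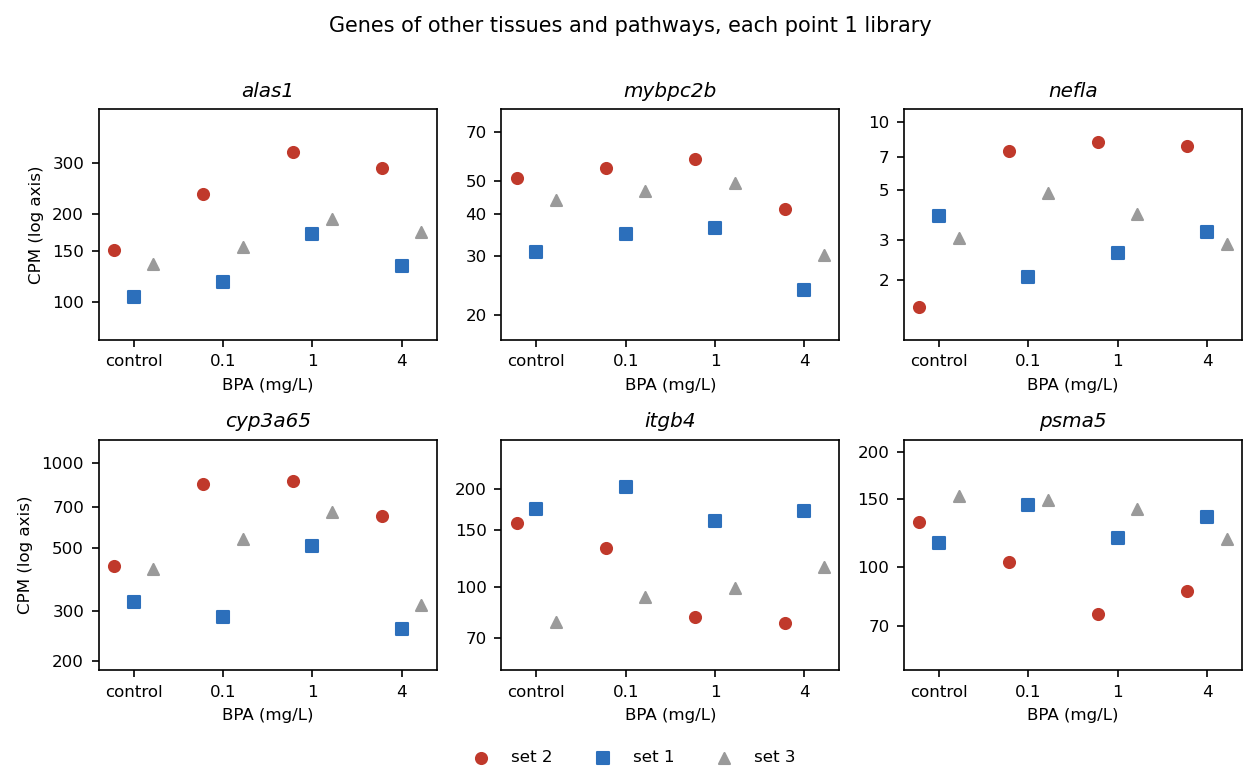
CPM (log axis) of alas1 and mybpc2b (called over all dose groups), nefla, cyp3a65, itgb4 and psma5 (called among exposed pairs) by BPA dose in mg/L, 1 point per library, for set 2 (red circles), set 1 (blue squares) and set 3 (grey triangles). In mybpc2b set 2 lies above set 1 at every dose including control, while in nefla control 2 lies lowest of all libraries at 1.53 CPM.

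The control pair followed the exposed pairs for some genes and ran against them for others. Across the 22399 tested genes, set 2 minus set 1 on the log2 scale correlated between exposed pairs with a Pearson's r of 0.39 (0.1 and 1 mg/L), 0.32 (0.1 and 4 mg/L) and 0.35 (1 and 4 mg/L). Between the control pair and the exposed pairs r was -0.01, -0.14 and 0.12 at 0.1, 1 and 4 mg/L. These values describe genes of the same 8 libraries, scaled together, and genes are not independent. Of the 183 genes called higher among exposed pairs, 88 had a control pair of the same sign and 95 the opposite one, with a median of 0.84 in exposed pairs and -0.02 in the control pair. Of the 122 called lower, 79 had the same sign and 43 the opposite.

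**Figure D4:**
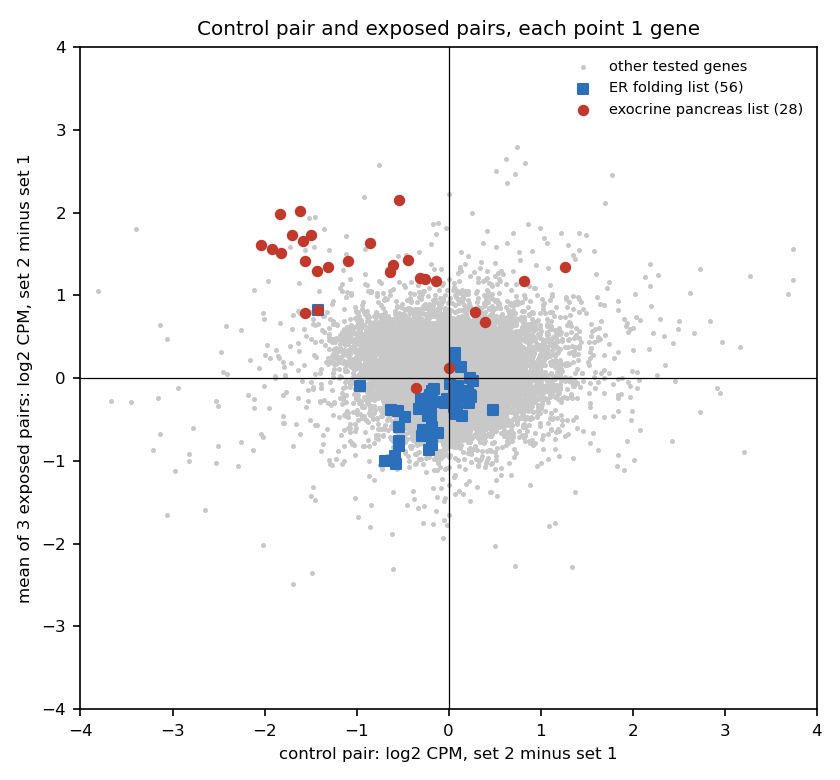
Log2 CPM of set 2 minus set 1 in the control pair (x axis) and averaged over the 3 exposed pairs (y axis), 1 point per tested gene, with 7 genes beyond the axes. Most of the 28 genes of the exocrine pancreas list (red circles) lie at the upper left, above 0 in exposed pairs and below 0 in controls. The 56 genes of the ER folding list (blue squares) lie mostly below 0 in exposed pairs, with 33 below and 23 above 0 in controls.

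The difference itself was tested as the control pair minus the mean of the exposed pairs, in the fit with a set effect of its own for controls. The split was made because control 2 was already known from these data to differ, so the test describes that pattern and is no independent evidence of it. With 1 control in each set, the spread came from the exposed libraries and was assumed for the controls. It called 26 genes (0.116%), all negative, that is with control 2 low against control 1 where exposed set 2 was high against exposed set 1. No gene was called positive by edgeR in the main fit or by limma-voom, and 24 were by DESeq2. Among alternative fits by edgeR, 7 genes were called positive with sets 1 and 2 only. The most, 12, were called without the 0.1 mg/L library of set 3. Without adjustment 1347 positive and 1781 negative genes had p under 0.05 in the main fit. Of the 26, 14 were on the exocrine pancreas list, where the median over 28 genes was -2.51, and all 28 lay below 0. In each of the 26 genes control 2 was below control 1, by 1.45-fold to 4.103-fold. For amy2a control 2 had 108 CPM and control 1 328 CPM, opposite to the exposed libraries, and the difference was -3.62 on the log2 scale. The same turn held for cpa4, with 29.6 CPM in control 2 and 106 CPM in control 1 (-3.83), and for ela2, with 140 and 531 CPM in controls 2 and 1 (-3.47). For these 3 genes control 2 lay near or below the exposed libraries of set 1, and control 1 between those of set 2 and set 1. Further genes were cel.1 (-3.60), ctrb1 (-3.41), ctrl (-3.23), cpa5 (-3.21), c6ast4 (-2.96) and try (-2.51). From the liver came itih3b, with 11.5 CPM in control 2 and 34.4 CPM in control 1 (-2.17), itih2 (-1.39), and the glycogen synthase of liver gys2 (-1.68). The count of 26 was 14 without the 1 mg/L library of set 1, 132 without the 4 mg/L library of set 1 and 168 without the 0.1 mg/L library of set 3. The 14 of the exocrine pancreas list became 8 without the 1 mg/L library of set 1. Calls of cpa5, gys2, itih2 and cel.1 were lost without the 1 mg/L library of set 1, and those of gys2, itih2 and cel.1 also without the 0.1 mg/L library of set 1.

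Between exposed larvae and control of the same set, most genes of the exocrine pancreas list differed in opposite directions in set 2 and set 1. The geometric mean of amy2a in the 3 exposed libraries was 4.15-fold above control in set 2, 2.97-fold below control in set 1 and 1.34-fold above control in set 3. Over the exocrine pancreas list the median of exposed minus control was 1.48 in set 2, -0.86 in set 1 and 0.19 in set 3 on the log2 scale, with 26, 2 and 21 of the 28 genes positive. The neuron list gave 0.60, -0.44 and 0.04. Hepatocyte genes were positive against control in each set, at 1.43, 0.42 and 0.30, and ER folding genes likewise at 0.12, 0.41 and 0.15. Each set holds 1 control, so no test within a set was made. The controls themselves differed in markers of many tissues. Control 2 was below control 1 for 23 of 28 exocrine pancreas, 42 of 49 hepatocyte and 46 of 54 neuron genes, whose summed share of counts was 0.489% in control 2 against 0.834% in control 1, 0.879% against 0.946%, and 0.155% against 0.240%. It was above control 1 for 48 of 52 genes of fast muscle, 30 of 36 of epidermis and mucus cells, 33 of 48 of cartilage, bone and connective tissue, 81 of 85 of nuclear oxidative phosphorylation, 67 of 72 mitochondrial and 89 of 92 cytosolic ribosomal protein genes, the last with a median of 0.42. Over all tested genes 11711 were higher and 10681 lower in control 2. Their part in the results was not tested.

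**Figure D5:**
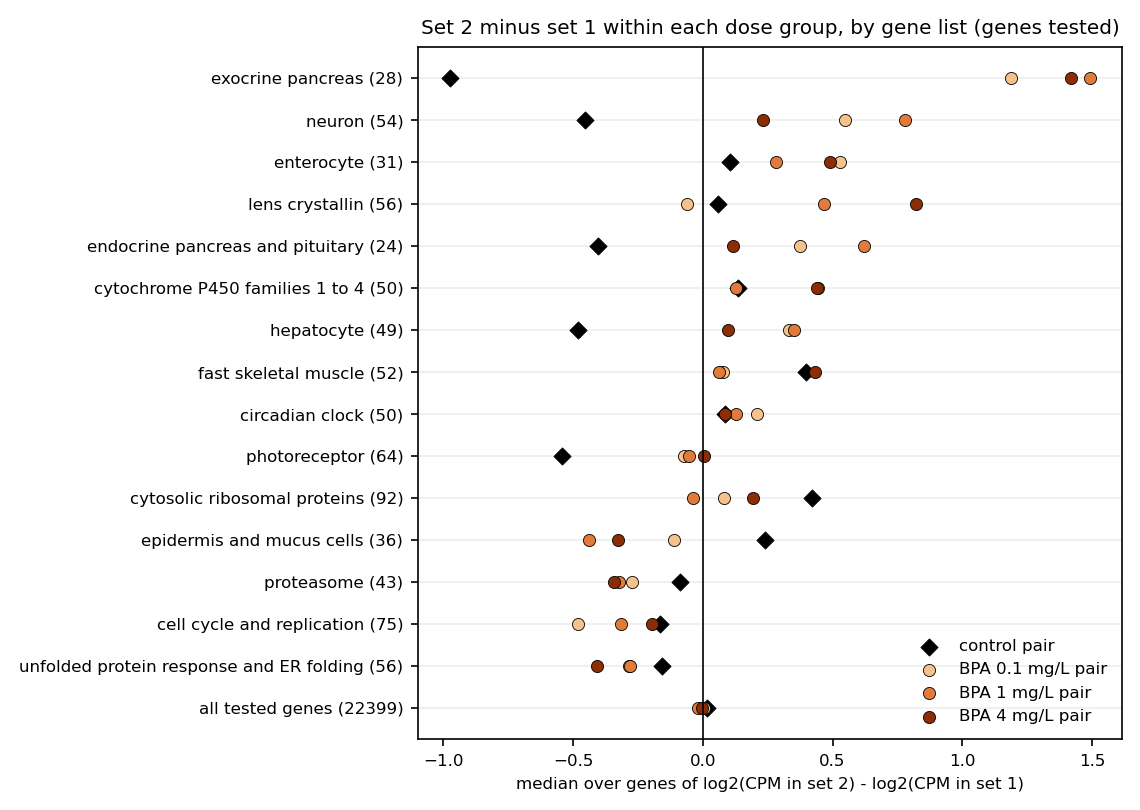
Median over the genes of a list of log2 CPM in set 2 minus log2 CPM in set 1 (x axis), for the control pair (black diamonds) and the pairs at 0.1, 1 and 4 mg/L BPA (light to dark circles), for 15 gene lists and all tested genes. For the exocrine pancreas list the control pair lies at -0.97 and the exposed pairs at 1.19, 1.49 and 1.42, while all tested genes lie near 0 in each pair.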

How the data were processed

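Raw counts of 31540 genes, whole numbers with no scaling applied, were deposited for each of 12 libraries. Per the labels' protocols, stranded poly-A libraries were made from whole larvae with 15 PCR cycles and sequenced as pairs of 76 base reads. Per the submitters' processing notes, CASAVA, STAR 2.5.1b, RSEM 1.2.28, DESeq2 1.10.1 and the build GRCz10 were named, without role or order. The handling of reads that map to several genes is not given in the sources used here, and the design assumed that values might be RSEM's estimated counts, but 0 were not whole. Reads carry no molecular identifiers, so PCR copies are counted. No coordinates are given, since the reference gene table is of another build.

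The function filterByExpr of edgeR, with a count of 10 and a total of 15 as minimum, left 22399 genes, which were scaled by TMM. CPM are TMM-scaled. A quasi-likelihood model in edgeR 4.0.16 (R 4.3.3) over all 12 libraries had dose group and replicate set as terms (6 residual degrees of freedom). For exposed pairs, controls got a set effect of their own (4 residual degrees of freedom), and the same fit gave the difference between the control pair and the exposed pairs. Tests were two-sided, and p-values were adjusted by Benjamini-Hochberg across the 22399 genes, with a threshold of 0.05. The standard error is the log2 fold change divided by the square root of F. Differences within a pair use log2 CPM with a prior count of 2.

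46 gene lists of tissues and pathways with at least 5 tested members were described by counts and medians, without a set test. The members of the comparison, the lists and the split between controls and exposed libraries were chosen with earlier results of these data known. Genes were named if they had a symbol, passed the threshold, averaged 5 CPM or more and kept one sign in every pair compared, up to the 12 largest changes in each direction. To these came the 8 largest differences between control and exposed pairs, up to 4 called members per list by p, and cyp19a1b; the choice of further list members was made with their values known. Some members of the lists are counted but not reported by name here. Alternatives were DESeq2 1.42.0, limma-voom (limma 3.58.1), RLE and upper-quartile scaling, other filters, a threshold of 0.01, only sets 1 and 2, no dose group, and leaving out each library. The pipeline was tested on simulated data first.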

Additional observations from a re-analysis of the deposited data

Results flagged for a closer look

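Within the 4 libraries of a set, 22 of 164 sets of values over 82 named genes had a library far from the other 3 (Dixon's test on log2 CPM, which flags about 1 in 20 by chance). That rate is no yardstick here. The doses of the 4 differ, and the genes were named for differences between sets or between control and exposed pairs. Control 2 was the lowest in 13 of the 22. Among pancreatic genes it had 108 CPM of amy2a (394 to 494 in the exposed libraries of set 2), 201 of ctrb1 (959 to 1132), 79.4 of c6ast4 (252 to 311), 3.54 of c6ast3 (8.48 to 9.10), 363 of try (1125 to 1177), 140 of ela2 (685 to 725), 85.3 of ctrl (360 to 388), 42.7 of cel.1 (183 to 235) and 20.3 of cel.2 (104 to 118). In liver and axon genes it had 42.6 CPM of gc (109 to 126), 469.98 of fetub (1369 to 1659), 8.50 of gys2 (25.9 to 31.1) and 1.53 of nefla (7.42 to 8.11).

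Control 1 was the highest of set 1 for amy2a at 328 CPM (100 to 116 in the exposed libraries), try at 777 CPM (419 to 449) and cpa4 at 106 CPM (36.6 to 43.7). The 1 mg/L library of set 1 was the highest for CREB3L3 at 6.09 CPM (others 3.35 to 3.55), cyp2n13 at 67.9 CPM (34.5 to 35.5) and agpat2 at 30.7 CPM (23.2 to 24.2). The 0.1 mg/L library of set 1 was the highest for s100a10b at 253 CPM (178 to 187). In set 2, the 4 mg/L library was the highest for rbm4.2 at 20.7 CPM (18.6 to 18.9) and manf at 16.8 CPM (12.0 to 12.3).

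For 12 named genes the change between sets passed edgeR's test of a difference between control and exposed larvae. The split was chosen with the behaviour of control 2 known, the genes were named by the same difference, and each set has 1 control, so the values are a description. On the log2 scale the control pair minus the exposed pairs was -3.83 for cpa4, -3.62 for amy2a, -3.60 for cel.1, -3.47 for ela2, -3.41 for ctrb1, -3.23 for ctrl, -3.21 for cpa5, -2.96 for c6ast4, -2.51 for try, -2.17 for itih3b, -1.68 for gys2 and -1.39 for itih2. Control 2 was below control 1 in each.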

How the results depend on the processing

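The counts of called genes depend on the tool and on the libraries used to estimate the spread. Over all dose groups, 21 genes became 587 with DESeq2, 43 with no filter on low counts, and 0 with sets 1 and 2 only (3551 with unadjusted p under 0.05), with an adjusted p under 0.01, or with no dose group in the model (2770 with unadjusted p under 0.05). For exposed pairs 305 became 985 with DESeq2, 505 with no filter, 2227 with sets 1 and 2 only and 27 under 0.01. For the difference between control and exposed pairs 26 became 215, 90 and 13 with DESeq2, sets 1 and 2 only and a threshold of 0.01. Leaving out 1 library at a time gave 0 to 637, 22 to 2268 and 14 to 168 genes for the 3 comparisons. The cause was not tested. limma-voom, RLE and upper-quartile scaling and a filter of 1 CPM in 3 libraries kept each count within 1.5 times. No named gene changed direction: under the alternatives 1417 values of named genes kept their side of the threshold and 516 lost it in the same direction. Over all dose groups, the 13 higher and 8 lower genes became 35 and 35 without the control of set 1. They became 5 and 5 without the 1 mg/L library of set 3. Of 2116 medians of gene lists under alternatives, 118 moved by more than the spread between pairs and 89 changed sign, each of a median reported at 0.11 or less in size. The hepatocyte median over all dose groups, 0.03, was -0.04, -0.01, -0.01 and -0.003 without the 0.1 or 1 mg/L library of set 1 or set 2, and the photoreceptor median among exposed pairs, -0.06, was 0.03 without the 1 mg/L library of set 1. The difference could not be fitted without control 1 or control 2. With 3 pairs and pools whose origin is not given, small changes and genes near 1 CPM could not be resolved. Pairing by replicate number was not possible because that number is itself the term tested. The main fits paired the libraries of the sets by dose group.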

Other observations

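Genes of the eye separated the pairs in different ways. Of 56 tested genes of crystallins, structural proteins of the lens, 2 were called higher among exposed pairs, against 0.817% of all tested genes. In 20 of the 56 all exposed libraries of set 2 lay above all those of set 1, which held for 9.11% of all tested genes. At an unadjusted p under 0.05 in edgeR 32 were higher, against 2668 of all 22399 tested genes. The called genes encode gamma crystallins. Of these, crygm5 had 5.06, 8.82 and 6.34 CPM in set 2 at 0.1, 1 and 4 mg/L, against 2.78, 3.80 and 2.18 CPM in set 1 (log2 fold change 1.21, adjusted p = 0.0356, edgeR), and crygm2f had a log2 fold change of 0.83. Reads of these copies may be shared. Over 56 tested crystallin genes the median of set 2 minus set 1 was 0.06 in the control pair and -0.06, 0.47 and 0.82 in the pairs at 0.1, 1 and 4 mg/L. Photoreceptor genes had their shift in the controls instead: the median over 64 genes was -0.54 in the control pair, where 60 were lower in control 2 than in control 1, and -0.07, -0.05 and 0.00 in the exposed pairs. The difference between controls and exposed pairs was called for 0 of the 64 by edgeR or limma-voom. DESeq2 called 1 of the 64 negative, and 191 of all 22399 tested genes. An unadjusted p under 0.05 in edgeR held for 1 positive and 23 negative ones. Of all 22399 tested genes, 1347 were positive and 1781 negative at that threshold.

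The actin gene acta1a of skeletal muscle was called higher among exposed pairs, with 327, 305 and 274 CPM in set 2 against 225, 236 and 156 CPM in set 1 (log2 fold change 0.57, adjusted p = 0.048, edgeR). Its controls had 289.96 CPM in set 2 and 214 CPM in set 1. Of 52 fast muscle genes 46 had a positive log2 fold change over all dose groups, with a median of 0.23, and mybpc2b was the one called. Of all 22399 tested genes, 11552 had a positive one and 0.058% were called higher. The replication-independent linker histone h1f0 was higher with h1fx, at 301, 349 and 304 CPM in the exposed libraries of set 2 against 189, 214 and 191 CPM in set 1 (0.68, adjusted p = 0.0134, edgeR), and the controls had 292 CPM in set 2 and 252 CPM in set 1.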
